A study of Arabidopsis thaliana with 12 samples.

Results

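Among the 21500 probes of an Arabidopsis thaliana array, 64 gave a ratio on both arrays of the transformant line AK073210 that was more than 1 log2 unit above the highest of the 10 arrays of the other 5 lines. The rule found 72 probes, and 8 of them were left out by name (VGD1, VGDH1, AT3G07850, AT3G14040, AT5G15110, THI2.1, CES and OCT1). Of the 64 members, 28 are listed with a gene and 36 with none. AK073210 is a line re-transformed with the rice full-length cDNA clone of that name. The lines it was set against, AK069096, AK073112, AK073675, AK065297 and AK102323, carry other rice clones, and every line has 2 arrays. On each array RNA from the aerial parts of the transformants, labelled with Cy3, was hybridised together with RNA of the wild type Col-0, labelled with Cy5. Days of 16 h light and 8 h dark at 22 °C were used for every group. The lines were taken from the titles and sources, since the free-text descriptions repeat AK069096 for all arrays. The age of the plants, the number of plants or clones behind a sample, the promoter that drives the cDNA and the product of each rice clone are not stated in the labels. The members were chosen by their ratios on all 12 arrays, so the height of the members in AK073210 is described and not tested.

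Values are log2 ratios derived from deposited log ratios that were taken as log10. The labels do not settle which channel is on top: the scanner program usually divides Cy5 by Cy3, which would put Col-0 on top, while the titles name the transformants first. "Above" and "below" therefore refer to the deposited ratio and never to more or less RNA in the transformants. No pair of arrays correlated below 0 over all probes, the lowest correlation being 0.115. In RNA from whole aerial parts, a different number of cells of one type and a different amount of RNA per cell cannot be told apart. The array gives ratios only, so the presence of leaf, stem or flower in the samples could not be checked by level.

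As background, several of the families met here have members that act at the end of flower development. Ripening pollen dries out, stores lipid and loads a wall-loosening set of pectin enzymes and their inhibitors, which the pollen tube uses as it grows through the style. Late embryogenesis abundant (LEA) proteins protect cells during drying, caleosins sit on lipid droplets, and lipid transfer proteins carry lipids to cell surfaces such as the pollen coat. The gene tables used here give a locus code for most members and no description, so the family of a locus is stated as background knowledge and was assigned after the members were known.

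On AK073210 replicate 1 the 64 members lay between 0.76 and 5.65, with a median of 2.96. On AK073210 replicate 2 they lay between 0.83 and 4.72, with a median of 2.59. On the other 10 arrays the medians of the same probes ran from -0.46, on AK073675 replicate 1, to 0.61, on AK065297 replicate 2. The mean of the AK073210 arrays was over 4 for 10 members, between 3 and 4 for 18, between 2 and 3 for 25 and under 2 for 11. The margin, which is the lower AK073210 array minus the highest of the other 10 arrays, had a median of 1.6, and it was over 2 for 16 members and over 3 for 4.

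Just inside the margin of 1 were AT1G23590 (1.03), the unnamed probe 4337 (1.04) and the unnamed probe 8774 (1.09). Just outside it were 3 unnamed probes, 21856 with a margin of 0.99, and 6531 and 7358 with 0.98 each. The same rule applied to the other lines gave 2 probes for AK069096, 2 for AK073112, 0 for AK073675, 0 for AK065297 and 2 for AK102323. On the negative side it gave 2 probes for AK073210, 1 for AK069096, 4 for AK073112, 1 for AK073675, 0 for AK065297 and 1 for AK102323. Both AK073210 arrays lay above the other 10 arrays, by any margin, in 965 of 21494 probes (4.49%).

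In the limma fit over all probes, 1.06% passed on the positive side and 0.386% on the negative side (1.45% in all) where AK073210 was set against the average of the other 5 lines. Against Col-0 the shares for AK073210 were 5.16% with a positive ratio and 4.53% with a negative one (9.69% in all). Of the members 54 passed on the positive side in the first of these comparisons and 59 in the second, and since the rule used both, nothing is read from these counts. The median difference between AK073210 and the other 5 lines was 2.89 over the members and -0.00197 over all probes.

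The largest family among the named members, by background knowledge, is that of the DUF1216 proteins, which share a domain of unknown function and are known mainly from the pollen of the cabbage family (5 members). AT3G28780 had the widest margin of all members, 4.1. It stood at 4.95 and 4.72 in AK073210, against -1.83, -1.12 and 0.61 as the lowest, median and highest of the other 10 arrays. AT5G61720, the family's member on chromosome 5, stood at 4.82 and 4.29 in AK073210, against -1.92, 0 and 2.15 on the other arrays. In both genes the groups of arrays are far apart, and the highest of the other arrays was AK065297 replicate 2.

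The remaining DUF1216 genes had narrower margins. AT3G28830 stood at 4.55 and 3.49 in AK073210, against -1.3, 0 and 2.0 on the other arrays (lowest, median, highest). AT3G28790 stood at 4.82 and 2.97 in AK073210, against -1.41, 0 and 1.46 on the other arrays. AT3G28840, the lowest of the family, stood at 2.22 and 2.47 in AK073210, against -1.09, -0.05 and 0.63 on the other arrays. The 2 AK073210 arrays of AT3G28790 differ by more than its margin of 1.51. With quantile normalization between arrays 1 of the 5 DUF1216 genes, AT3G28780, kept a margin over 1 (3.3), and AT3G28830 had a margin of 0.16.

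Of these family genes 4 lie in a row of neighbours on chromosome 3. In the TAIR10.1 gene order there are 10 protein-coding genes from AT3G28750 to AT3G28840, and 6 of them have a listed probe. Members are 5 of these 6: AT3G28750, AT3G28780, AT3G28790, AT3G28830 and AT3G28840. AT3G28750, whose family is not stated here, stood at 4.15 and 3.82 in AK073210, against -1.35, 0 and 1.91 on the other arrays. The exception is AT3G28760, next to AT3G28750, with a difference between AK073210 and the other 5 lines of 0.31 ± 0.12 (SE of the limma fit, n = 2 and 10 arrays, adjusted p = 0.283). The nearest genes with a listed probe before the row, AT3G28710 and AT3G28715, had differences of 0.09 and 0.1 (adjusted p = 0.648 and 0.614 in limma). Along this stretch 1 measured gene is thus skipped, and the measured genes before it stand near 0. The genes after it, from AT3G28850 to AT3G28870, have no listed probe, so that end of the row was not measured.

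Chromosome 3 holds 10 of the 28 named members (35.7%), beside 19.9% of all named probes. Of these 10, 5 are the neighbours from AT3G28750 to AT3G28840, so the share is not one of independent positions. Chromosome 2 holds 1 (3.57%, beside 14.5%). That gene, AT2G47050, is the immediate neighbour of the pollen pectin methylesterase gene VGD1, and VGDH1 lies 2 gene places away, both among the genes left out by name. AT1G72290 lies 4 gene places from the thionin gene THI2.1, also left out. Within 5 gene places of any named member there are 87 other probes that are neither members nor left out by name, and 1 of them, AT4G13210, passed on the positive side in AK073210 against the other 5 lines (0.86 ± 0.15, SE, n = 2 and 10 arrays, adjusted p = 0.0375 in limma), beside 1.06% of all probes.

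Cell wall genes are the next group, with 6 members. AT2G47050 belongs to the invertase and pectin methylesterase inhibitor family, whose proteins block the removal of methyl groups from pectin. It stood at 2.94 and 4.32 in AK073210, against -2.01, 0 and 0.8 on the other arrays (lowest, median, highest). The same inhibitor family holds AT5G50030, at 3.32 and 2.41 in AK073210, against -0.63, 0.3 and 1.09 on the other arrays. In both inhibitor genes the AK073210 arrays lie well clear of the others while replicates 1 and 2 are in opposite order. AT4G02250, also an inhibitor, stood at 2.74 and 2.22 in AK073210, against -0.51, 0.11 and 0.72 on the other arrays. The fourth, AT3G62180, was the lowest, at 2.1 and 1.26 in AK073210, against -1.6, 0 and 0.04 on the other arrays. In AT2G47050 it is replicate 2 that is the higher AK073210 array, and in the other inhibitors replicate 1.

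Enzymes of wall polymers complete this group. AT3G26140, a cellulase of the glycosyl hydrolases, stood at 3.11 and 2.55 in AK073210, against -0.41, 0.21 and 0.76 on the other arrays. CSLA01, of the cellulose synthase-like family that makes mannans, stood at 2.24 and 2.03 in AK073210, against -1.18, 0.04 and 0.26 on the other arrays. Both had AK073210 arrays that differed by less than their margins of 1.79 and 1.77.

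Lipid-related families and the pollen allergen family gave 4 members. AT1G23240, a caleosin, had the second widest margin of all members, 3.4, with 5.18 and 4.48 in AK073210, against -3.09, -0.04 and 1.09 on the other arrays. The lipid transfer protein gene AT4G33355 stood at 2.98 and 3.22 in AK073210, against -0.81, 0.39 and 0.78 on the other arrays. These genes differ in the spread of the other arrays, which is wide for the caleosin and narrow for the transfer protein. AT1G29140, of the pollen Ole e 1 family, stood at 3.99 and 2.42 in AK073210, against -0.65, -0.15 and 1.08 on the other arrays. AT1G66850, another lipid transfer protein gene, stood at 3.11 and 2.94 in AK073210, against -4.15, 0.08 and 1.76 on the other arrays. Its other arrays span more than those of any other named member, and its AK073210 arrays differ by only 0.17 from each other.

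Genes of the LEA family gave 3 members. AT4G13230 stood at 3.0 and 3.65 in AK073210, against -1.27, -0.13 and 1.32 on the other arrays, and AT5G38760 at 3.22 and 2.69 in AK073210, against -1.27, -0.39 and 1.03 on the other arrays. AT3G02480 stood at 1.76 and 1.99 in AK073210, against -1.29, -0.74 and -0.05 on the other arrays. AT3G02480 is thus positive in AK073210 and negative on each of the other 10 arrays, where it is one of 6 members with no value above 0.

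A protease inhibitor, a protease and a thiol reductase form a further group. AT1G72290 encodes a Kunitz-type protease inhibitor, known from the transmitting tract of the pistil. It stood at 4.65 and 2.97 in AK073210, against -3.23, -1.16 and 0.38 on the other arrays. AT4G04460, an aspartic protease, stood at 2.43 and 2.34 in AK073210, against -2.92, -0.53 and 0.46 on the other arrays. GILT, a lysosomal thiol reductase, stood at 2.14 and 2.38 in AK073210, against -1.0, 0 and 0.36 on the other arrays. The AK073210 arrays of the aspartic protease and of GILT lie close together, while those of the inhibitor differ by 1.68.

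Among the other named members, AT3G12000, related to the S-locus glycoproteins of self-incompatibility in Brassica, stood at 4.68 and 3.09 in AK073210, against -0.36, -0.09 and 1.28 on the other arrays. AT5G44440, an oxidase of the berberine bridge enzyme family, stood at 2.23 and 3.13 in AK073210, against -0.41, -0.05 and 0.95 on the other arrays. AT5G49130, an efflux carrier of the MATE family, stood at 2.17 and 1.57 in AK073210, against -0.38, 0 and 0.42 on the other arrays. These genes do not share a family with each other or with another named member whose family is given here.

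Besides AT3G28750, 3 loci are given without a family. AT3G01240 stood at 4.32 and 3.75 in AK073210, against -3.59, 0 and 1.25 on the other arrays. It lies 3 gene places from the pectate lyase gene AT3G01270. AT1G23590 stood at 3.28 and 2.41 in AK073210, against -0.08, 0.24 and 1.38 on the other arrays, and AT1G02070 at 1.59 and 1.53 in AK073210, against -0.13, 0.11 and 0.35 on the other arrays. Beside AT1G23590, AT1G23580 had a difference of 1.86 ± 0.4 between AK073210 and the other 5 lines (SE, n = 2 and 10 arrays, adjusted p = 0.0773 in limma).

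The 36 members with no listed gene had AK073210 means between 0.79 and 5.07, with a median of 2.6, and margins between 1.04 and 3.34. Probe 5638 was the highest member in AK073210, at 5.65 and 4.48, against -2.22, 0.26 and 1.14 on the other arrays. Probe 21392 stood at 4.05 and 4.19 in AK073210, against -1.03, 0 and 0.91 on the other arrays. At the low end probe 4337 stood at 0.76 and 0.83 in AK073210, against -1.49, -0.77 and -0.28 on the other arrays, where it was negative throughout. What these probes measure is not stated, and they are counted and not described by function.

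The pollen list of 53 genes has 15 genes with a listed probe. AT1G29140 is a member and 5 genes are among those left out by name, which leaves 9. Of these 9, 2 passed on the positive side in AK073210 against the other 5 lines, beside 1.06% of all probes. On the negative side 0 passed, beside 0.386%. At an unadjusted p under 0.05 the counts in limma were 6 and 0, beside 8.23% of all probes on the positive side and 7.25% on the negative side. All 7 lists were chosen with earlier results of these data known, so the counts of list genes are a description only. The pectin methylesterase gene AT5G07410 stood at 3.42 and 2.7 in AK073210, against -0.96, 0 and 1.82 on the other arrays (difference 3.17 ± 0.39, SE, adjusted p = 0.0121 in limma). Its family neighbour AT5G07430 stood at 0.52 and 0.51 in AK073210, against -0.81, -0.45 and -0.06 on the other arrays (0.96 ± 0.15, adjusted p = 0.0257 in limma). The AK073210 arrays of AT5G07410 and AT5G07430 lie above all other arrays, by margins of 0.89 and 0.57. Another pectin methylesterase gene of the list, AT5G07420, stood at 0.34 and 0 in AK073210, against -2.05, -0.6 and 0 on the other arrays. It did not pass (difference 0.97 ± 0.49, SE, adjusted p = 0.393 in limma).

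With arrays left out the adjusted p moved across the threshold while the differences changed little. With one array left out the difference lay between 2.81 and 3.52 for AT5G07410 and between 0.9 and 1.01 for AT5G07430. AT5G07410 did not pass without AK073210 replicate 1 (difference 2.81). With quantile normalization its difference fell to 2.42 (adjusted p = 0.0507 in limma). AT5G07430 did not pass without AK073210 replicate 1 (adjusted p = 0.143 in limma) or replicate 2 (0.109), nor without AK073675 replicate 1 or any single AK065297 or AK102323 array (0.0524 to 0.0597). The pectate lyase gene AT3G01270 stood at 1.76 and 4.78 in AK073210, against -1.61, -0.24 and 0.97 on the other arrays, with a difference of 3.58 ± 0.76 (adjusted p = 0.0747 in limma). Its AK073210 arrays are farther apart than those of any member. The difference was 5.09 without AK073210 replicate 1 and 2.07 without AK073210 replicate 2, and the adjusted p moved across the threshold.

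Genes of pollen tube signalling and of the pollen cytoskeleton stood closer to the other lines. ANX1, a receptor kinase that keeps the pollen tube intact, differed by 0.89 ± 0.29 (adjusted p = 0.197 in limma), and BUPS2, its partner kinase, by 0.56 ± 0.22 (adjusted p = 0.276). The tubulin gene TUA1 differed by 0.18 ± 0.09 (adjusted p = 0.401) and the actin gene ACT12 by 0.18 ± 0.2 (adjusted p = 0.746). The second Ole e 1 gene, AT5G45880, stood at 0.22 and 0.04 in AK073210, with a difference of 0.26 ± 0.11 (adjusted p = 0.322 in limma), while the member AT1G29140 stood at 3.99 and 2.42. The median difference of the 9 genes was 0.89.

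In the tapetum and anther list, which covers the cells that feed pollen and coat it, 7 of 30 genes have a listed probe and none is a member. By limma 0 of the 7 passed, with 2 on the positive side and 0 on the negative side at an unadjusted p under 0.05 (8.23% and 7.25% of all probes). The lipase gene EXL1 stood at 0.63 and 0.38 in AK073210, against -1.75, -0.65 and -0.49 on the other arrays (difference 1.31 ± 0.3, adjusted p = 0.0919 in limma). With 1 array left out the difference of EXL1 lay between 1.18 and 1.44, and its adjusted p moved across the threshold. It passed with arrays scaled to the same spread (difference 1.31, adjusted p = 0.0481 in limma). The tapetum regulator AMS stood at 1.12 and 1.44 in AK073210, against -2.51, -0.05 and 0.72 on the other arrays. Its difference was 1.46 ± 0.61 (adjusted p = 0.308 in limma), and between 1.17 and 1.75 with 1 array left out. The adjusted p of AMS also moved across the threshold with 1 array left out. EXL5 stood at 1.51 and 1.7, against -1.57, 0.35 and 1.15 (1.56 ± 0.69, adjusted p = 0.336). SHT, which makes pollen coat conjugates, stood at 0.64 and 1.24, against -3.72, -0.77 and 0.8. SHT differed by 2.07 ± 1.28 (adjusted p = 0.495), and its highest other array lies between the AK073210 arrays. A9, EXL3 and EXL2 differed by 0.2, 0.17 and 0.02. The median of the 7 was 1.31.

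The remaining lists have few listed probes and no member. Of the floral list 1 of 15 genes has a probe, the terpene synthase gene TPS11, which differed by 1.47 ± 0.38 (adjusted p = 0.12 in limma). In the jasmonate list the defensin gene PDF1.2 is the only measured gene besides THI2.1 and differed by -1.2 ± 0.86 (adjusted p = 0.574). Of the root list EXPA7 (-0.22) and EXPA18 (0.25) did not pass, and of the photosynthesis list 0 of 5 passed, with a median of -0.21. In these lists limma called 0 genes, with TPS11 the only one at an unadjusted p under 0.05. The seed list has no listed probe.

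The replicates of a line were also set against each other. Over the 64 members the AK073210 arrays, whose values the rule used, correlated at 0.82, and the arrays of the other lines at between 0.02, in AK102323, and 0.48, in AK069096. Over all probes the correlation was 0.647 in AK073210, 0.644 in AK102323 and 0.805 in AK069096, so AK073210 did not have the closest replicates there. In AK073210 replicate 1 was above replicate 2 for 45 members and below it for 19, with a median difference of 0.33. For 32 members the AK073210 arrays differed by under 0.5, and for 11 by over 1.

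The other lines also shifted by array. AK065297 replicate 2 was above AK065297 replicate 1 for 56 of the 64 members and below it for 7, with a median difference between replicates 1 and 2 of -0.86, beside 0 over all probes. A step of over 1 towards replicate 2 was seen in 25 members (39.1%), beside 1.84% of all probes. AK065297 replicate 2 was the highest of the other 10 arrays for 34 members. All 5 DUF1216 genes were higher on it than on replicate 1, by 0.75 to 2.45, and over the 64 members the step between the AK065297 arrays correlated with the AK073210 mean at r = 0.43 and rho = 0.47. The rule kept AK065297 replicate 2 more than 1 below both AK073210 arrays, so a low AK073210 mean also limits the step. Nothing is read from these correlations. Without AK065297 replicate 2 the rule gave 78 probes. The 64 members are among them by construction, since leaving out another array cannot narrow a margin.

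AK073675 replicate 1 lay the other way. On it 39 members were below 0 and 8 above, and 21 were below -1, beside 2.53% of all probes. On AK102323 replicate 1 there were 12 members below -1, beside 2.12% of all probes, and 8 members were below -1 on both arrays, beside 0.726%. These 8 include AT1G72290, at -3.23 and -1.51, and AT1G66850, at -4.15 and -2.9, on AK073675 replicate 1 and AK102323 replicate 1. The unnamed probe 19712 stood at 4.09 and 4.15 in AK073210, against -6.08 and -5.41 on these arrays, and at -0.01 and 0.61 on the second replicates of AK073675 and AK102323. In probe 19712 and in AT1G66850 the replicates of AK073675 and of AK102323 thus lie farther apart than 4 log2 units, and neither probe passed the test among the other lines.

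Differences among the other 5 lines were tested with limma's F-test, which leaves AK073210 out of the contrasts. The rule capped the highest of these arrays, so the members' counts in it are a description and nothing is read from them. Of the members 1 of 64 passed (1.56%), beside 2.48% of all probes, and at an unadjusted p under 0.05 it was 9 (14.1%), beside 20.8%. The member is the unnamed probe 7469, which stood at 4.45 and 4.19 in AK073210, with line means of 1.56 in AK069096, 2.35 in AK073112, -1.44 in AK073675, -1.87 in AK065297 and 1.56 in AK102323 (adjusted p = 0.022 in limma). The median SD of the 5 line means was 0.4 over the members and 0.2 over all probes.

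An exact 0 was deposited for 138 of the 640 member values on the other 10 arrays (21.6%), beside 5.76% of all values there, and for 0 of the member values on the AK073210 arrays. What an exact 0 stands for is not stated. It was absent from 29 members and stood on 5 or more of the other arrays in 13. With exact 0 treated as missing the rule gave 67 probes. The 64 members are among them by construction, since taking values off the other arrays cannot narrow a margin.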

How the data were processed

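Per the labels, each of the 12 arrays has 2 dyes and holds the RNA of 1 transformant line and of Col-0, with 2 arrays for each of 6 lines. It is not stated if a line's arrays had different plants, so p-values reflect only how arrays differ, which may be technical. The authors deposited 1 ratio between the dyes for each of 21500 probes and array, made with Agilent Feature Extraction 7.1.1 per the submitters' processing notes and taken here as log10 from the form of the values. Not given in the sources are the base, the direction, the background method and any dye normalization. Values were divided by the log10 of 2 to give log2. Probe names came from the array's gene list, of which 9335 probes have 1 gene, 40 have several and 12125 have none, updated by gene ID to TAIR10.1 for 9317.

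On the 21494 probes measured on each of 12 arrays, limma 3.58.1 in R 4.3.3 fitted a mean for each line with a shared spread (6 residual and 1.88 prior degrees of freedom), tested on both sides and adjusted after Benjamini-Hochberg over all these probes, with a threshold of 0.05. It was tested on simulated arrays. The number of arrays limits the precision. The members, the 7 gene lists and the tests were chosen with earlier results of these data known. Named were the 28 members with a gene, the 3 probes on each side of the margin, and list genes past the test or with the largest difference, together with other list genes and the neighbours of members, which were chosen after their values were seen. Alternatives covered normalization, exact zeros, averaging by locus, arrays left out, a replicate block, array weights, a robust spread and the margin.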

Additional observations from a re-analysis of the deposited data

Results flagged for a closer look

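The member probe 7469, which has no listed gene, differed among the 5 lines other than AK073210 (adjusted p = 0.022 by limma's F-test). It stood at 1.82 and 1.3 in AK069096, 1.8 and 2.91 in AK073112 and 0.82 and 2.3 in AK102323, but at -1.51 and -1.38 in AK073675 and -2.21 and -1.53 in AK065297. Both arrays of each of these lines lie on one side of 0. The rule that chose the members had capped the highest of these arrays, so this p-value is a description and nothing is read from it. Of the members 1 of 64 passed (1.56%), beside 2.48% of all probes.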

How the results depend on the processing

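The number of members depends on the processing. It was 35 with quantile normalization, all of them among the 64, of which 14 have a listed gene, and it was 171 at a margin of 0.5 and 36 at a margin of 1.5. Read as natural logarithms the deposited values gave 11 members, and read as log2 they gave 3. The negative side gave 2. The same rule, applied to other lines after seeing the data, gave 2 in AK069096, AK073112 and AK102323 and 0 in AK073675 and AK065297. With one array left out the number lay between 64 and 270, the highest without AK073210 replicate 2. Leaving an array out can only keep or raise a margin, so the members stay in the set there by construction. All 28 named members kept a margin above 0 under each normalization, the lowest being 0.16 for AT3G28830 with quantile normalization.

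For AK073210 against the other 5 lines 311 probes passed, between 103 and 1183 with one array left out, 482 without both AK073112 arrays and 182 without both AK065297 arrays. For AK073210 against Col-0 2082 passed, between 399 and 4972 with one array left out, 4972 without both AK073112 arrays, 3327 with arrays scaled to one spread and 3227 with array weights. Among the other 5 lines 532 passed, between 18 and 5699 with one array left out, 3118 without both AK073112 arrays, 119 without both AK065297 arrays, 170 without both AK073675 arrays and 3238 with array weights. Of the members 1 passed there, between 0 and 4 with one array left out, 0 without both AK073675 arrays, 2 with exact zeros as missing, and 3 with quantile normalization, array weights or without both AK073112 arrays. The cause of these shifts was not tested.

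The replicate numbers were not shown to pair the arrays: the differences between replicates 1 and 2 correlated between lines at -0.07 to 0.17. With the replicate block 273 probes passed for AK073210 against the other 5 lines, 1999 against Col-0 and 187 among the other 5 lines.

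Of the list genes not past the test, 6 changed side with an array left out: EXPA7 ran from -1.27 to 0.83, EXPA18 from -0.34 to 0.85, RCA from -0.205 to 0.131, LHCB4.2 from -0.19 to 0.011, ACT12 from -0.21 to 0.56 and EXL2 from -0.022 to 0.053. RCA stood at 0.023 without both AK073112 arrays, and EXL2 at -0.036 there and at -0.0699 without both AK073675 arrays. LHCB4.1 ran from -0.5, without AK073112 replicate 2, to -0.22, without AK073112 replicate 1. Its adjusted p moved across the threshold over the arrays left out. AT5G07430 also missed the threshold without both AK065297 arrays (adjusted p = 0.0517) and without both AK073675 arrays (0.0512). The planned count of promoter motifs was not run, since no sequence was used here. With ratios only, signal over background is unknown.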
